A study of Mus musculus with 5 samples.

Results

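The Rab GTPases are small switch proteins of membrane traffic. Each cycles between a GTP-bound form that recruits effectors to a membrane and a GDP-bound form held soluble by a dissociation inhibitor, and each marks its own compartments, from the endoplasmic reticulum and Golgi to endosomes, lysosomes and secretory granules. In alveolar type 2 cells they bear on the lamellar body, a lysosome-related organelle in which surfactant is stored before it is secreted; in mice that lack functional Rab38, lamellar bodies are enlarged. The members were the genes whose symbol is Rab followed by a number and at most a letter and a digit, taken from probe sets with a single gene symbol. There were 59 such genes on 132 probe sets, of 18194 named genes in all. Where a gene had several probe sets, the values given are those of the set with the highest mean. Relatives with longer symbols, such as Rab-like and Rab-interacting proteins, were not members.

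RNA came from GFP-positive cells that were sorted by flow cytometry from trypsin-dissociated lungs of SPC-GFP mouse pups, born from matings with outbred ICR mice and taken on postnatal day 2. All 5 samples were biological replicates of this 1 group, with 1 one-colour array each, so no treatment, genotype or age could be compared. The titles call the cells alveolar type 2 and the design text calls them ciliated, and the labels do not say whether a replicate was 1 pup or a pool, so a p-value covers no more than the spread among these 5 samples, which may be partly technical. The transgene's name stands for surfactant protein C, the classical marker of alveolar type 2 cells; the labels do not describe its promoter or how many other lung cells carry GFP. All 12 alveolar type 2 markers lay above background, Sftpc among them at 14.67 ± 0.053 (SD, n = 5). Of 15 measured ciliated markers 13 did as well, Foxj1 at 7.91 ± 0.61, and so did 10 of 10 endothelial, 12 of 13 immune and 11 of 13 mesenchymal markers. All 10 alveolar type 1 markers were above it too, Ager at 14.68 ± 0.015. The same held for 7 of 8 club and secretory markers, Scgb1a1 at 14.50 ± 0.086. Neutrophil, neuroendocrine and erythroid lists had 9 of 10, 5 of 10 and 3 of 6. Of all genes tested 74.9% lay above background. Markers of several cell types were thus detected, and in bulk RNA fewer cells of a type and less RNA per cell cannot be told apart.

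Values are log2 signals. Levels were not ranked between genes, since probe sets differ in how brightly they hybridise. As a background, each array was given the 95th percentile of its signals from 78 genes of chemosensory receptors, which came to 5.41 to 5.69. A gene was called above background where limma's one-sided moderated test of signal minus background gave a Benjamini-Hochberg adjusted p under 0.05 over all genes.

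Sequence could be shown for the start regions of 48 of the 59 genes, as 300-base windows from RefSeq on the mouse build GRCm38.p6. They are shown because the members spread over a continuous range of CpG content, described further on, of which these are examples from either end. CpG pairs are in capitals, and each sequence runs 5′ to 3′ on the gene's own strand. Rab17 and Rab25, both GTPases of polarised epithelial traffic, had CpG-poor windows, with 5 and 9 CpG pairs. Rab10, of basolateral exocytosis, and Rab6a, of traffic within the Golgi and back from it, had CpG-rich windows, with 43 and 29. The windows lie at chr1:90967618-90967917 on the minus strand for Rab17, chr3:88548230-88548529 on the minus strand for Rab25, chr12:3309920-3310219 on the minus strand for Rab10 and chr7:100607336-100607635 on the plus strand for Rab6a.
Rab17: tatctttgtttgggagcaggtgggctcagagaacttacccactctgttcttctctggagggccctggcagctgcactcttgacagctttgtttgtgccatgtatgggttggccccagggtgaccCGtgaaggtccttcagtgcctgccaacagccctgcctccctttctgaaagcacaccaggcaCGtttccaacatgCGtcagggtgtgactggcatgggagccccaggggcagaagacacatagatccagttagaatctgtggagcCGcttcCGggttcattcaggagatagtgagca
Rab25: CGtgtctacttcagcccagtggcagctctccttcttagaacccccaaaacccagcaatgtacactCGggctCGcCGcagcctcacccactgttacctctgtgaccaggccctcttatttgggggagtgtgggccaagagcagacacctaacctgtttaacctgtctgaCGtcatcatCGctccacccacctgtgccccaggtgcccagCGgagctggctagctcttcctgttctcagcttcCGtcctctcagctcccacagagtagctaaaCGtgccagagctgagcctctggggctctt
Rab10: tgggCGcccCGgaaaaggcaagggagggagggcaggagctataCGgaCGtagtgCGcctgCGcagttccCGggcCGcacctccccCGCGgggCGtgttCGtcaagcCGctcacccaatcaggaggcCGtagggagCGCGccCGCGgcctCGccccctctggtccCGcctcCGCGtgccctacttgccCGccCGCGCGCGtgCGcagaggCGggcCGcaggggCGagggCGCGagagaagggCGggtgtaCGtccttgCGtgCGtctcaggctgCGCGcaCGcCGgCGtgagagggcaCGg
Rab6a: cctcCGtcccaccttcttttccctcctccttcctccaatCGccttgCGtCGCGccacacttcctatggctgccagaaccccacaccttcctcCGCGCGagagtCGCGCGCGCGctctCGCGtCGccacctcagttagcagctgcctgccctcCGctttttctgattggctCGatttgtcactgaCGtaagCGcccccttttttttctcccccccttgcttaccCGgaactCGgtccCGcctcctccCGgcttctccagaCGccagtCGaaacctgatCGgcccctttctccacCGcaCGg

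Most Rab genes gave a signal. Of the 59 members, 53 (89.8%) lay above background, where 74.9% of all 18116 genes tested did. Their means ran from 3.46 to 13.58 log2 units with a median of 10.31, or 9.44 where the median over a gene's probe sets was taken. The other genes had a median of 8.94 on their own brightest probe sets; since probe sets differ in brightness, these medians describe the signals and do not compare transcript levels. All members of the exocytosis and recycling list (14 of 14), the early endosome list (7 of 7) and the cilium and hedgehog list (3 of 3) were above it. So were 12 of 13 genes of the early secretory pathway, 5 of 6 of late endosomes and lysosomes, 8 of 10 of regulated secretion and lysosome-related organelles, and 4 of 6 of the divergent members. At the 99th percentile of the receptor genes 49 members were called, against 66.9% of all genes. A second background came from 53 genes whose expression is tied to other organs and lay at 7.56 to 8.0. Against it 44 members were called, where 57.5% of all genes were.

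**Figure D1:**
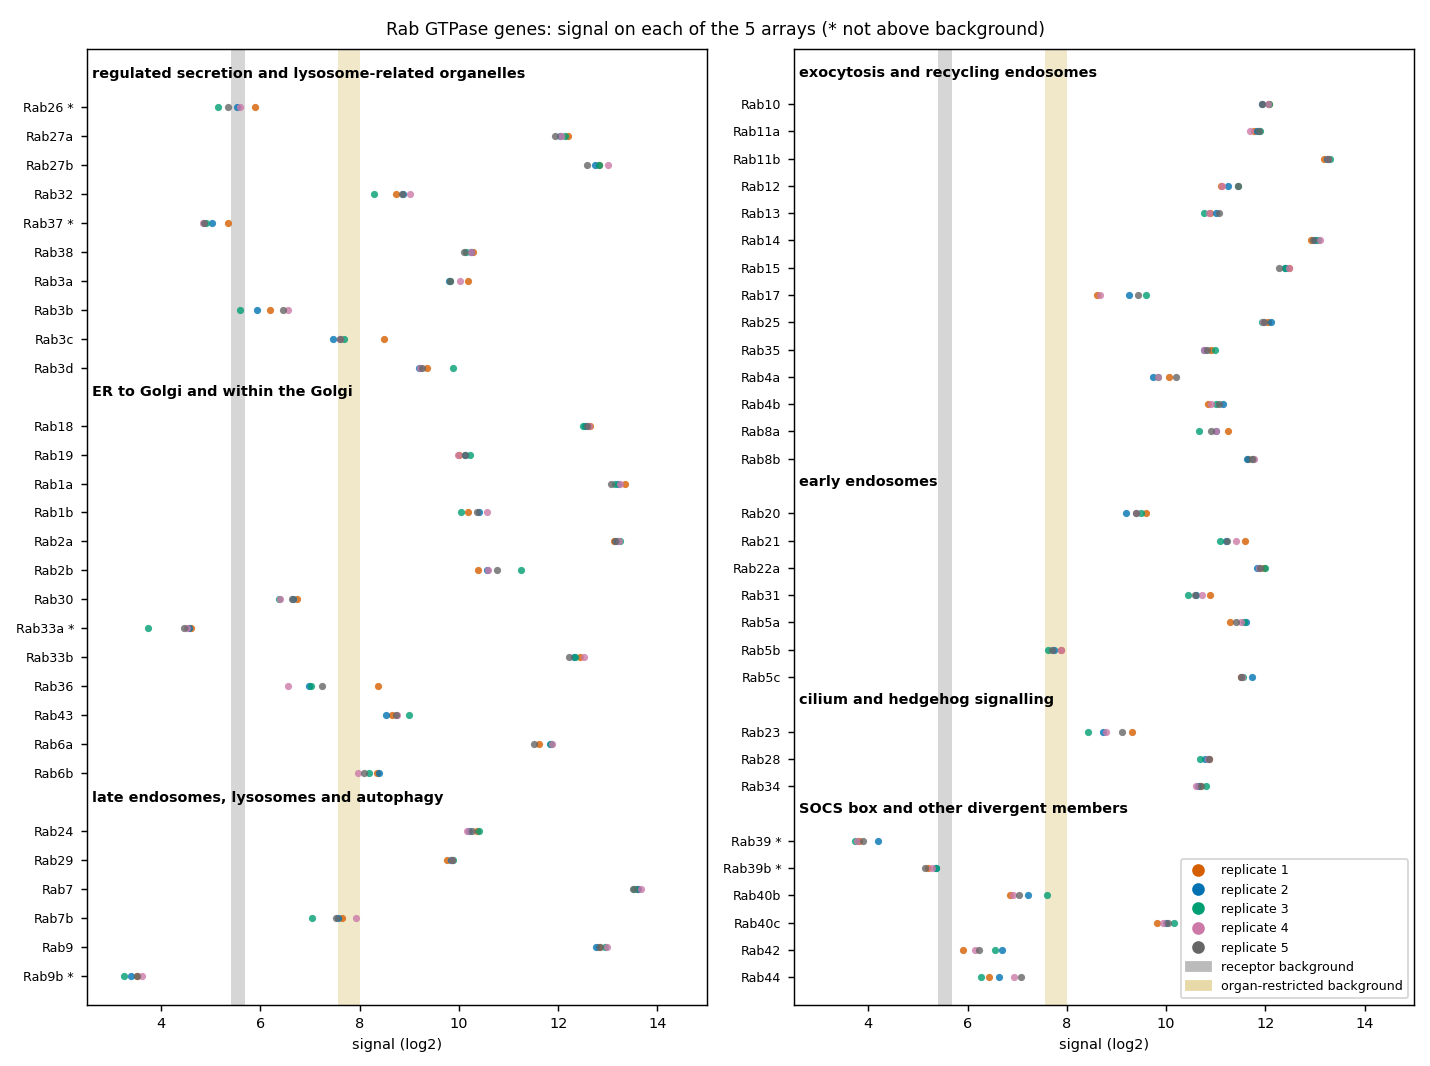
Signal of each of the 59 Rab genes (log2, horizontal axis) on the 5 arrays, 1 point per replicate, grouped by role. Grey and yellow bands span the receptor and organ-restricted backgrounds of the arrays. The 6 genes marked with an asterisk were not above the receptor background, and for most others the 5 points nearly coincide.

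The GTPases of regulated secretion and lysosome-related organelles bear most directly on the lamellar body. Rab38, which acts in melanosomes and lamellar bodies, read 10.29, 10.24, 10.15, 10.25 and 10.09 in replicates 1 to 5 (10.20 ± 0.080, SD, n = 5). Its 5 values lay within 0.19 log2 units. The other probe set of Rab38, with a mean of 8.30, spanned 0.39 and was highest in replicate 3. Rab32, its closest relative, read 8.73, 8.87, 8.29, 9.01 and 8.85, with replicate 3 below the other 4. Both share the exchange factor BLOC-3, whose subunit genes Hps1 and Hps4 were also above background, at 7.18 ± 0.13 and 9.88 ± 0.14. Hps1, at 7.04 to 7.35, lay below the organ-restricted background on every array.

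Rab27a carries secretory granules and melanosomes towards the plasma membrane and is the gene mutated in ashen mice. It read 12.21, 12.03, 12.15, 12.06 and 11.94, and Rab27b, its paralog in secretory cells, read 12.83, 12.74, 12.82, 13.00 and 12.58. On these probe sets all arrays of both genes lay more than 6 log2 units above background. Their other probe sets were dimmer but also above background. Those of Rab27a had means of 7.94, 7.87 and 7.27, and those of Rab27b 11.29, 9.75 and 5.81. Of their effectors, the synaptotagmin-like genes Sytl1, Sytl2 and Sytl4 had 8.68 ± 0.18, 10.12 ± 0.17 and 8.77 ± 0.11. Mlph, the melanosome adaptor melanophilin, had 9.42 ± 0.10. Myrip, a related adaptor, lay near background, with 6.44, 5.29, 5.80, 6.43 and 5.79 (limma adjusted p = 0.0103).

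Among the Rab3 genes, Rab3d, found on secretory granules of exocrine cells, read 9.35, 9.20, 9.88, 9.22 and 9.26. Replicate 3 stood 0.68 log2 units over the lowest array, while the gene's next probe set, at 8.46, 8.39, 8.61, 8.39 and 8.34, spanned 0.27. Rab3a, best known from synaptic vesicles, read 10.19, 9.80, 9.83, 10.02 and 9.81. Its other probe set had another order of arrays, with 8.55, 9.24, 9.31, 8.52 and 9.12. Rab3c, another synaptic vesicle GTPase, read 8.49, 7.47, 7.68, 7.61 and 7.60, so that replicate 1 stood apart from the other 4. Rab3b, of secretory vesicles in neuroendocrine and epithelial cells, read 6.19, 5.93, 5.60, 6.56 and 6.47. That was above the receptor background (limma adjusted p = 0.000418) and below its 99th percentile and the organ-restricted background.

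The remaining genes of that list were not above background. Rab26, of granule maturation in exocrine cells, read 5.89, 5.53, 5.15, 5.60 and 5.35 (limma adjusted p = 0.672), values that straddle it. Rab37, known from mast cell granules, read 5.35, 5.02, 4.90, 4.85 and 4.87 (adjusted p = 1). Its other probe set was not above background either, with a mean of 4.91.

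The other 4 genes that were not called belong to further groups. Rab33a, a relative of Rab33b described in brain and immune cells, read 4.61, 4.56, 3.73, 4.52 and 4.46. Rab9b, a paralog of the late endosome gene Rab9, read 3.52, 3.40, 3.25, 3.62 and 3.52. Rab39 read 3.81, 4.20, 3.73, 3.77 and 3.89, and Rab39b, whose human ortholog is mutated in X-linked intellectual disability, 5.20, 5.36, 5.36, 5.28 and 5.13. All 4 lay below background on every array. With limma each had an adjusted p of 1. Signal below background is a bound set by these probes and does not show that a transcript was absent.

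The early secretory pathway gave signal through most of its paralogs. Rab1a and Rab1b, which act between endoplasmic reticulum and Golgi, had 13.20 ± 0.10 and 10.31 ± 0.20. Rab2a, of the intermediate compartment, had 13.19 ± 0.056 and Rab2b 10.71 ± 0.33. Rab6a had 11.74 ± 0.16 and Rab6b, its paralog best known from neurons, 8.19 ± 0.18. Rab18, of lipid droplets and the endoplasmic reticulum, had 12.58 ± 0.061, and Rab33b, of the Golgi and of autophagy, 12.37 ± 0.11. Rab19 and the Golgi genes Rab43 and Rab30 had 10.09 ± 0.096, 8.73 ± 0.17 and 6.56 ± 0.16.

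GTPases of exocytosis and recycling were above both backgrounds without exception (14 of 14). Rab8a and Rab8b, which bring vesicles to the apical membrane, had 10.96 ± 0.21 and 11.70 ± 0.063, and Rab10 had 12.01 ± 0.073. The recycling endosome genes Rab11a and Rab11b had 11.81 ± 0.081 and 13.24 ± 0.047, and Rab25, their epithelial relative, ran from 11.92 to 12.11 with an SD of 0.077. Rab4a and Rab4b, of fast recycling, had 9.93 ± 0.19 and 10.99 ± 0.12, and Rab35 10.85 ± 0.095. Rab14, between endosomes and the trans-Golgi, had 13.00 ± 0.074, Rab13, of tight junctions, 10.92 ± 0.12, Rab15 12.40 ± 0.082 and Rab12 11.28 ± 0.17. Rab11fip1, Myo5b and Myo5c, an effector and the motor proteins of recycling vesicles, had 12.29 ± 0.17, 12.03 ± 0.19 and 12.51 ± 0.11.

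On the endocytic side Rab5a and Rab5c, which drive early endosome fusion, had 11.47 ± 0.13 and 11.56 ± 0.091. Rab5b, the remaining paralog, had 7.76 ± 0.11 and lay within 0.1 log2 units of the organ-restricted background (limma adjusted p = 0.823). Rab21, Rab22a, Rab31 and Rab20 had 11.30 ± 0.20, 11.91 ± 0.073, 10.65 ± 0.16 and 9.41 ± 0.15. Rab7, the late endosome GTPase now called Rab7a, had 13.58 ± 0.061, and Rab9, of traffic from late endosomes to the trans-Golgi, 12.87 ± 0.089. Rab24, of autophagy, had 10.28 ± 0.10, and Rab29, which binds the kinase LRRK2, 9.84 ± 0.047.

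Of the genes tied to cilia and hedgehog signalling, Rab34, needed to build some primary cilia, had 10.69 ± 0.075, Rab28 10.80 ± 0.073 and Rab23, a negative regulator of hedgehog signalling, 8.87 ± 0.35. The divergent members were Rab40b and Rab40c, which carry a SOCS box and join ubiquitin ligases, with 7.12 ± 0.29 and 9.98 ± 0.12. Rab42 had 6.31 ± 0.31, and Rab44, a large member described in mast cells and osteoclasts, 6.67 ± 0.33.

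The machinery that loads and switches Rab proteins was measured alongside. All 7 measured genes of prenylation and membrane extraction were above background, with Gdi2, a dissociation inhibitor, at 13.68 ± 0.066. The escort protein genes Chm and Chml had 10.10 ± 0.18 and 10.09 ± 0.12, and Rabggta and Rabggtb, subunits of the prenyl transferase, 11.21 ± 0.17 and 11.74 ± 0.056. Exchange factors (28 of 28), GTPase activating proteins (32 of 32) and effectors of endosomes, recycling and the Golgi (29 of 29) were likewise all called, where 74.9% of all genes were. The lists were a choice of genes, and these shares depend on it. Among the genes called, Hps1, Rin1, Sgsm1 and Tbc1d10c had means of 7.18, 7.55, 7.12 and 6.66, under the organ-restricted background. Rab3gap1, which acts on Rab3 and Rab18, had 9.67 ± 0.11. Of 14 effectors of secretion 10 were called. The exceptions were Rph3a, Rims1, Rims2 and Unc13a, genes of synaptic vesicle release, with 4.45 ± 0.35, 5.43 ± 0.24, 5.51 ± 1.00 and 5.70 ± 0.15. Rims2 was uneven, at 6.87 and 6.29 in replicates 1 and 4, above the background of those arrays, and at 4.73 to 4.87 in the other 3. The mean of Unc13a was 0.19 log2 units above background without being called (limma adjusted p = 0.109). Rims3 and Unc13b, of the same families, were called, with 6.42 ± 0.48 and 11.16 ± 0.18.

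Most Rab genes differed little between the replicates. The median range over the arrays was 0.32 log2 units for the 53 members above background, and the median SD was 0.12; the other genes above background had 0.38 and 0.15. Because genes of higher signal vary less on these arrays, each variance was set against the variance limma fitted for genes of that signal. On that scale the SD was over the fitted value in 26 of 53 members (49.1%) and in 50% of other genes. It was over 2 times the fitted value in 3 of 53 (5.66%) and in 11.1% of other genes. The F test on 4 and 3.86 degrees of freedom called 0 of 53 members, and 0% of all 13576 genes tested, at an adjusted p under 0.05. At an unadjusted p under 0.05 it called 1 of 53 members, Rab36, and 5.6% of all genes. On simulated data the test, once adjusted over all genes, missed genes whose spread had been set several times above the fitted one. A count of 0, or a large adjusted p for a single gene, therefore does not show that the arrays were alike.

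**Figure D2:**
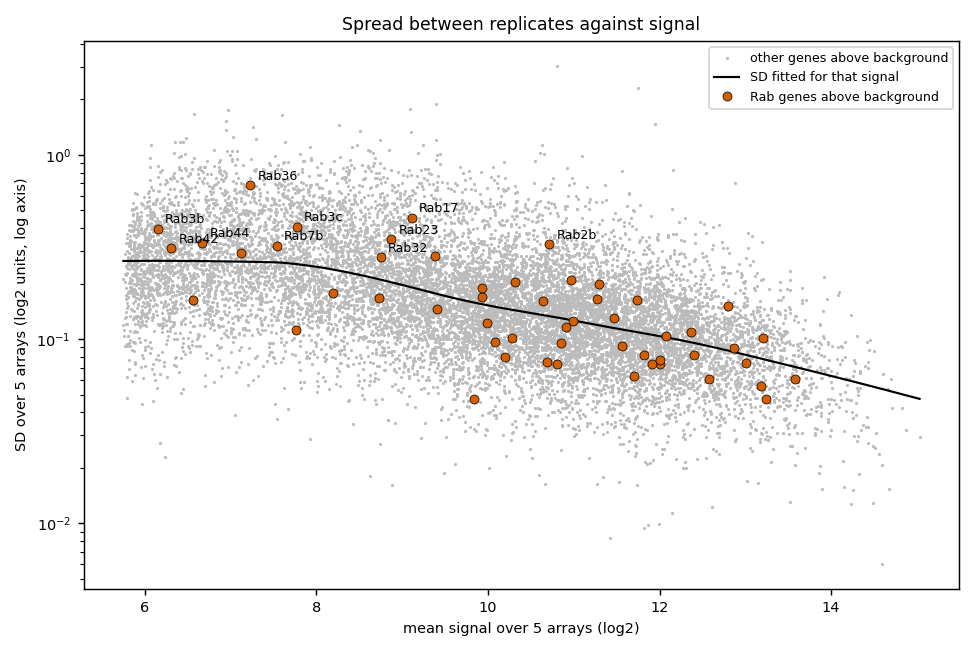
SD over the 5 arrays (log2 units, log axis) against mean signal (log2) for the 53 Rab genes above background (orange) and all other genes above background (grey), with the SD that limma fitted for each signal (black line). The 10 Rab genes of largest range are labelled, and Rab36, Rab17 and Rab2b lie over 2 times the line.

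The steadiest members by range were Rab29 (0.12 log2 units), Rab2a (0.13), Rab11b (0.13), Rab10 (0.14) and Rab8b (0.15). These are ranges of the probe set with the highest mean. Other probe sets above background spanned 0.096 and 0.46 for Rab10, 0.24 and 0.43 for Rab11b and 0.11 to 0.35 for Rab2a. Rab29 read 9.77, 9.83, 9.88, 9.87 and 9.87. Rab2a read 13.12, 13.19, 13.25, 13.23 and 13.14, Rab11b 13.17, 13.24, 13.30, 13.26 and 13.25, Rab10 12.07, 11.93, 12.06, 12.05 and 11.92 and Rab8b 11.64, 11.63, 11.74, 11.78 and 11.72. In all, 20 of the 53 (37.7%) spanned under 0.25 log2 units, against 26.8% of other genes above background. At the other end 3 of 53 (5.66%) spanned 1 log2 unit or more, against 9.89% of other genes. These shares of range, unlike those of the SD above, were not set against the signal of the genes.

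Rab36, a Golgi GTPase, had the widest range. It read 8.37 in replicate 1 and 6.99, 7.01, 6.55 and 7.24 in replicates 2 to 5, a 3.53-fold range (F test against limma's fitted variance, adjusted p = 0.884). Its other probe sets read 7.51 and 6.23 in replicate 1, above 6.12 to 6.97 and 4.57 to 5.34 in the other arrays. All 3 probe sets were thus highest in replicate 1, and without that replicate the SD of Rab36 was 0.29 in place of 0.68. Its mean lay below the organ-restricted background.

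Rab3c also stood high in replicate 1. Its 3 probe sets above background read 8.49, 8.10 and 7.86 there, against 7.47 to 7.68, 6.80 to 7.69 and 6.88 to 7.27 in the other arrays, and without replicate 1 its SD was 0.086 in place of 0.41. Its mean was not called above the organ-restricted background (difference 0.0076, limma adjusted p = 0.800). Rab3c did not pass the spread test (adjusted p = 0.996, limma).

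Each marker list was given a score on each array. For every listed gene above background the deviation from its mean over the arrays was taken, and the score is the average of these after the median of that deviation over all such genes had been subtracted. Ciliated markers were highest in replicate 1, with scores of 1.04, 0.30, −0.56, −0.39 and −0.38 in replicates 1 to 5 (13 of 15 measured genes scored; Dnah5 and Spag17 were not above background). Neuroendocrine markers scored 0.59, 0.01, −0.46, −0.19 and 0.06 (5 of 10 scored; Pcsk1, Insm1, Neurod1, Scg2 and Snap25 were not above background). The bacterial bioB and bioC hybridisation controls averaged 12.57 in replicate 1, against 11.63 to 11.79 in the others. Their part in the values of Rab36 and Rab3c was not tested. The 53 Rab genes together scored 0.04, −0.01, −0.01, 0.01 and −0.02. This averages genes of different roles. The scores of single role lists spanned more, from 0.069 for exocytosis and recycling to 0.33 for cilium and hedgehog and 0.37 for the divergent members.

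**Figure D3:**
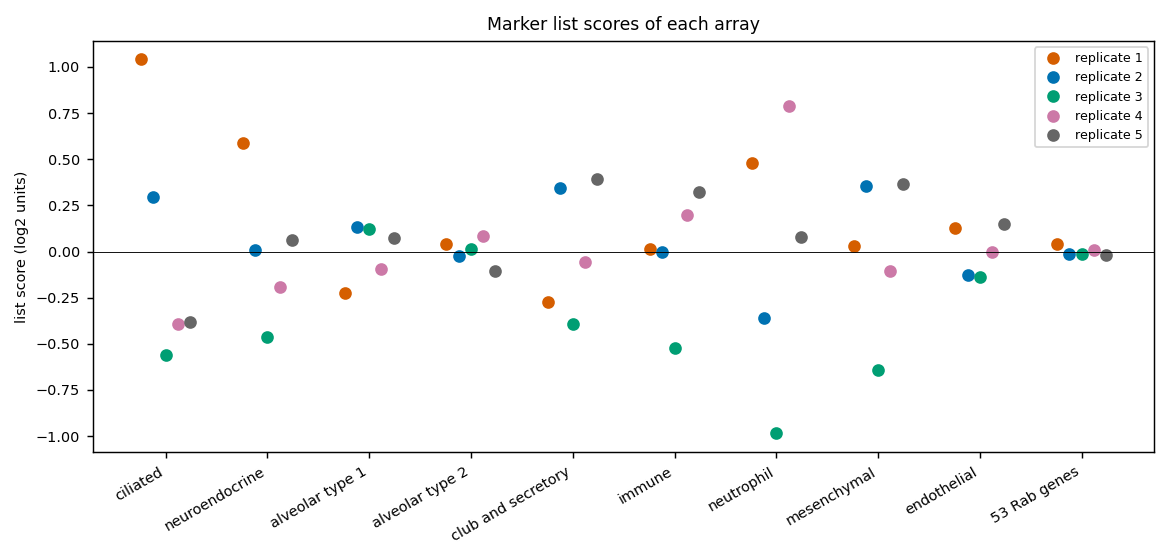
Scores of 9 marker lists and of the 53 Rab genes above background on each array (log2 units, 1 point per replicate). Ciliated and neuroendocrine lists are highest in replicate 1, and 7 of the 9 lists drawn, all but the alveolar ones, are lowest in replicate 3. The erythroid list (3 of 6 genes scored) is not drawn and is lowest in replicate 5, at −0.26, against −0.23 in replicate 3. The average over all 53 Rab genes, which mixes roles, spans 0.06 log2 units.

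Rab17, an epithelial GTPase of transcytosis, had a 2.00-fold range. It read 8.60, 9.26, 9.60, 8.66 and 9.44, with replicates 1 and 4 below the other 3. The second probe set read 5.95, 6.71, 6.95, 6.09 and 6.29 and had the same order of arrays at the ends, lowest in replicate 1 and highest in replicate 3. The spread test did not call Rab17 (adjusted p = 0.914, limma). Alveolar type 1 markers scored −0.23, 0.13, 0.12, −0.10 and 0.08 (10 of 10 scored), also lowest in replicates 1 and 4. The difference between 3′ and 5′ control probe sets of Gapdh, a sign of RNA quality and of amplification, was 1.27, 1.52, 1.67, 1.39 and 1.60, which puts the 5 arrays in the same order as Rab17 does. The part of either in the values of Rab17 was not tested. The second probe set departed from the Gapdh order, with replicate 5 below replicate 2. How many other genes have that order was not counted.

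The pair of replicates 1 and 4 was lowest in 8 of the 53 members (15.1%): Rab11a, Rab12, Rab17, Rab19, Rab40b, Rab40c, Rab42 and Rab4b. Among all genes above background it was lowest in 18.5%, so the members were near the background share. The 1 exchange factor at an unadjusted p under 0.05 was Dennd3, which acts on Rab12, with 10.98, 11.93, 12.20, 11.37 and 11.98 (adjusted p = 0.859, limma). Rab12 itself read 11.10, 11.25, 11.44, 11.13 and 11.45 (adjusted p = 0.996, limma). The 1 such gene among endosomal and Golgi effectors was Rabep2, an effector of Rab5, with 12.14, 12.34, 12.77, 12.18 and 12.56 (adjusted p = 0.880, limma). Neither Dennd3 nor Rabep2 thus passed after adjustment over all genes. Both put the arrays in the same order as the Gapdh difference given beside Rab17, whose part in their values was not tested. The share of all genes above background with that order was not counted.

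Several members were lowest in replicate 3. Rab7b, a GTPase of late endosomes described in myeloid cells, read 7.64, 7.56, 7.03, 7.92 and 7.52, and all 3 of its probe sets were lowest there. Rab32 (8.29 in replicate 3, against 8.73 to 9.01), Rab3b (5.60 against 5.93 to 6.56) and Rab44 (6.28 against 6.43 to 7.07) were lowest in replicate 3 as well. So was Rab33a (3.73 against 4.46 to 4.61), which lay below background on every array. Of the other members above background, Rab1b, Rab5b, Rab8a, Rab13, Rab18, Rab21, Rab23, Rab25, Rab28, Rab30 and Rab31 were also lowest there. Immune markers scored 0.01, −0.0028, −0.52, 0.20 and 0.32 (12 of 13 scored; Itgam was not above background) and neutrophil markers 0.48, −0.36, −0.99, 0.79 and 0.08 (9 of 10 scored; Cxcr2 was not). The low score of replicate 3 was not particular to these lists. Mesenchymal markers scored −0.64 there, with 10 of 11 scored genes lowest in it, ciliated markers −0.56, neuroendocrine markers −0.46, club and secretory markers −0.39 and endothelial markers −0.14, and each of these lists had its lowest score in replicate 3. Replicate 3 also had the largest differences between 3′ and 5′ control probe sets, at 1.67 for Gapdh (1.27 to 1.60 in the others) and 0.84 for Actb (0.54 to 0.60). Their part in these values was not tested. In all, 15 of 53 members (28.3%) were lowest in replicate 3 and 15 of 53 highest there, against 24.6% and 26.6% of all genes above background.

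For Rab2b and Rab23, and for Rab3a given earlier, the pattern over the arrays was not shared by their other probe sets. Rab2b read 10.39, 10.57, 11.25, 10.58 and 10.78 on the probe set of highest mean, with replicate 3 highest. Its next probe set read 9.07, 9.04, 9.20, 9.17 and 9.21, a range of 0.17. Rab23 read 9.32, 8.72, 8.43, 8.78 and 9.11, highest in replicate 1 and lowest in replicate 3, whereas its next probe set read 8.45, 8.80, 8.80, 8.45 and 8.64. Rab42 and Rab44 had 1 probe set each and read 5.92, 6.69, 6.54, 6.15 and 6.23 and 6.43, 6.63, 6.28, 6.93 and 7.07.

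**Figure D4:**
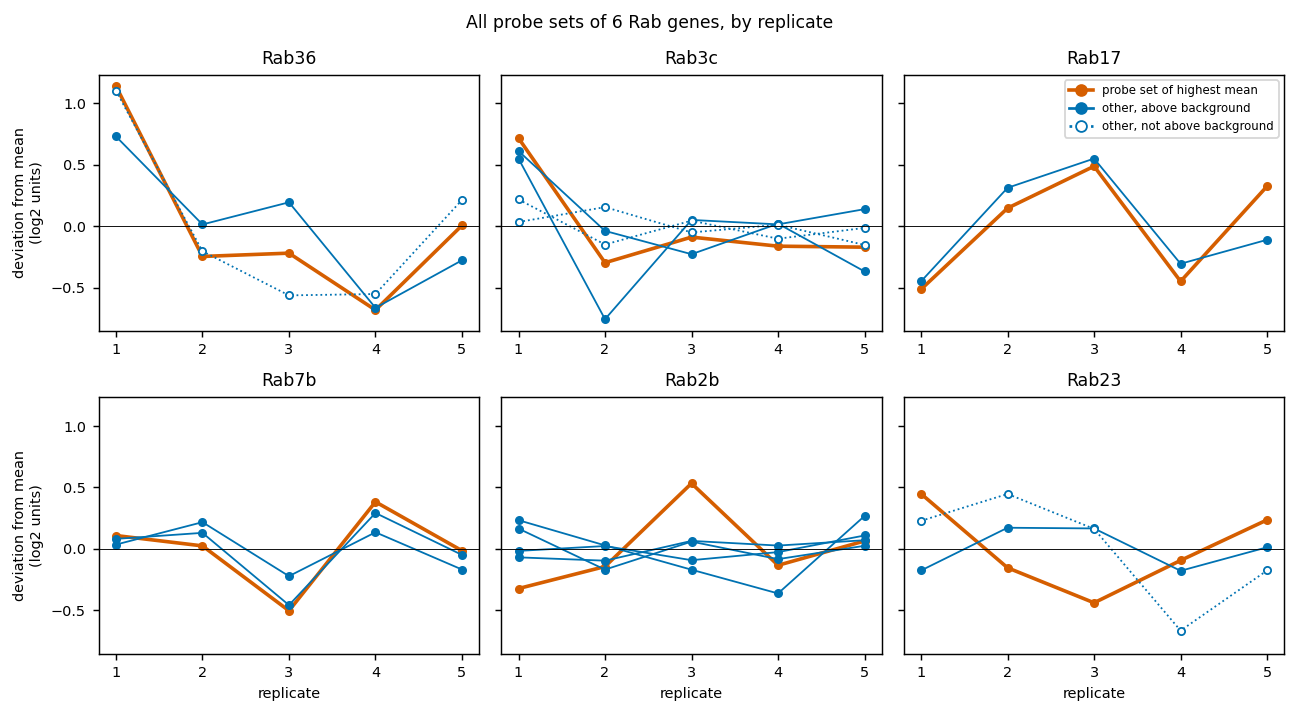
Deviation of every probe set of 6 Rab genes from its own mean over the arrays (log2 units, vertical axis) in replicates 1 to 5. Orange marks the probe set that represents the gene and open symbols those not above background. The profiles of Rab36, Rab3c (probe sets above background), Rab17 and Rab7b share their extreme array, whereas those of Rab2b and Rab23 do not.

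The choice of probe set mattered for levels as well. Of the 59 genes 38 had several probe sets, up to 7, and the highest and lowest of a gene differed by a median of 2.40 and at most 9.91 log2 units (Rab2a, 13.19 and 3.27). Of the 132 probe sets 114 (86.4%) were above background, where 71.4% of all probe sets with 1 symbol were. In 9 of the 38 genes (23.7%), against 32.8% of all genes with several probe sets, some probe sets were above background and others were not. These were Rab23, Rab2a, Rab36, Rab3c, Rab3d, Rab40b, Rab40c, Rab8a and Rab8b. The lowest probe sets of Rab8a and Rab8b averaged 2.89 and 5.06, those of Rab40b and Rab40c 5.64 and 5.45, and that of Rab3d 4.31. In 33 genes at least 2 probe sets were above background, and the representative and the next of these had the same highest array in 11 and the same lowest array in 11.

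Promoter windows of the members were mostly CpG-rich. The counts below are of genes, and 8 of the 48 members had several start windows. For such genes the median ratio was taken, and letters searched for were counted if found in any 1 window. The ratio of observed to expected CpG pairs was over 0.6 in 33 of 44 members above background (75%) and in 67.0% of the other genes above background; it was so in 2 of 4 members not above background and in 21.7% of the other genes not above it. Medians were 0.75, 0.73, 0.68 and 0.30 in the same order. The 11 members above background with a ratio of at most 0.6 were Rab3b, Rab3c, Rab5b, Rab9, Rab15, Rab17, Rab19, Rab25, Rab27a, Rab32 and Rab42. The ratios ran on through 0.6 without a gap, and that cut was a choice. The printed windows span this scale, with ratios of 0.22 for Rab17, 0.37 for Rab25, 1.03 for Rab10 and 1.18 for Rab6a. Rab39 and Rab39b were not above background and had ratios of 0.81 and 1.06. The TATA box letters TATAAA, searched on both strands, were found in 3 of the 44 members above background (6.82%), against 9.09% of the other genes above background. They were in 1 of 4 members not above background. Of all 32851 single windows 13.6% held them, a share per window and not per gene. No test was made of these shares.

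**Figure D5:**
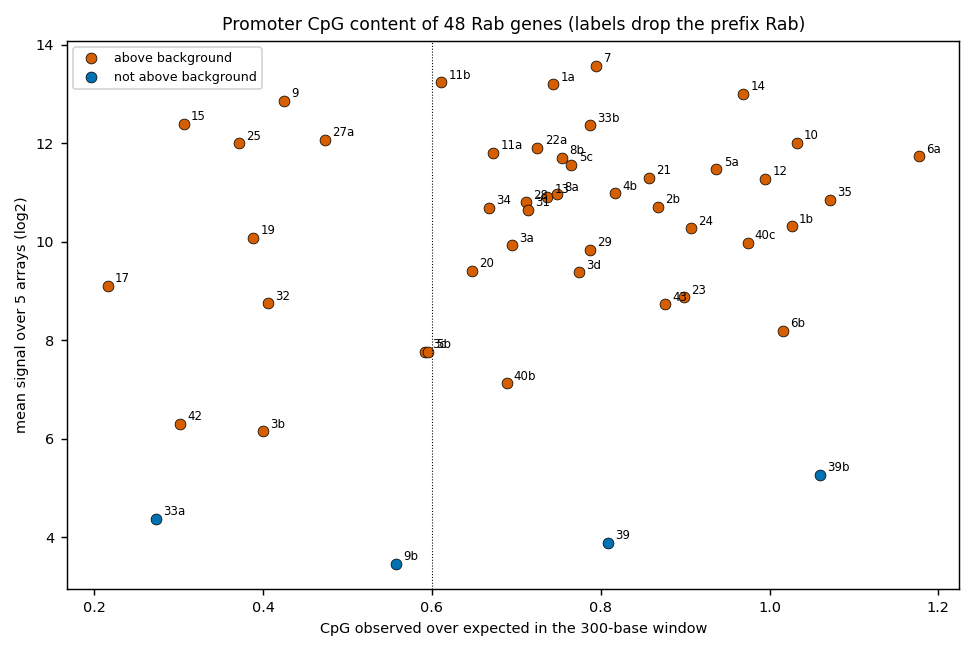
Mean signal over the 5 arrays (log2, vertical axis) against the ratio of observed to expected CpG pairs in the 300-base start window (horizontal axis) for the 48 Rab genes with a window, 1 point per gene. Where a gene has several windows, the ratio is their median. The dotted line marks a ratio of 0.6, with Rab17 at the low end and Rab6a at the high end; signals of different probe sets are not ordered by this plot.

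The letters TCACGTGA, the core of the CLEAR element found near lysosomal genes, are palindromic and were searched once per window. They occurred in 3 of 44 members above background (6.82%), 0 of 4 of the other members and 2.01% of the other genes above background, counted per gene. Counted per window, they occurred in 0.974% of all windows. The genes were Rab5a and Rab21 of early endosomes and Rab24 of autophagy, and the stretches around the match, with the letters in capitals, are on GRCm38.p6 at chr17:53479128-53479155 (plus strand), chr10:115315605-115315632 (minus strand) and chr13:55321962-55321989 (minus strand). Both motifs were chosen after values had been seen, and a match is a description of letters, not a binding site.
Rab5a: cccggggatgTCACGTGActtcggcccc
Rab21: cccaccgcggTCACGTGAcgaggggtgt
Rab24: ggcgcccgcgTCACGTGAccgggcgtcc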

How the data were processed

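The deposited file held 1 log2 value per probe set and array for 45101 probe sets; the log base was inferred from the values, and no source used here gives the authors' software, background correction or normalization. Per the labels' protocols, NuGEN Ovation kits served for amplification and biotin labelling. Medians per array were 7.12 to 7.19. Arrays give no counts, so their number limits the precision, and saturation was not checked. Gene names came from a platform annotation of 2016: 34958 had 1 gene symbol, 932 had several and 9211 are unnamed here, and the last 2 kinds were left out. All 59 member symbols matched a RefSeq gene table (GRCm38.p6).

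For the background call, limma 3.58.1 in R 4.3.3 (lmFit and eBayes with trend) fitted 1 mean per gene to the signal minus the array's background. Spread was the variance over the arrays divided by limma's fitted variance (trend, robust), tested one-sided by F. Both were adjusted over all genes tested and tested on simulated data. The background test called 10% of genes set 0.5 log2 units above the real mean background, 99% at 1 above and 0% at 0.2 below. A gene that was not called can thus lie somewhat above background. In the simulation the background was taken anew from simulated receptor genes, so the distance tested there may differ from the one set. On the real arrays Myrip was called at 0.44 above background. The adjusted spread test called 0% of genes at 5 times the fitted SD and 92% at 20 times. The members, lists and tests were chosen with earlier results of these data known, so no list is independent evidence. Named by rule, with the value on every array, were the regulated secretion list, the 10 members of largest and 5 of smallest range, members not called and members at an unadjusted spread p under 0.05. Rab5c, Rab12, Dennd3, Rabep2, Rims2, Rims3, Unc13b and the motif searches were chosen after their values were seen. Sytl5, which the rule also lists, was not analysed here. Alternatives are given in the closing section.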

Additional observations from a re-analysis of the deposited data

Results flagged for a closer look

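In 4 of the 59 members 1 array stood apart, with a gap to the nearest array above Dixon's 95% critical value for 5 samples (0.71 of the range). Chance flags about 1 in 20 groups, and among the members above background the share was 3 of 53 (5.66%), near the 5.35% of all genes above background. The fourth gene, Rab33a, was not above background. Rab3c read 8.49 in replicate 1 and 7.47 to 7.68 in the others. Rab33a, below background on every array, read 3.73 in replicate 3 and 4.46 to 4.61 in the others. Rab3d read 9.88 in replicate 3 and 9.20 to 9.35 in the others. Rab5c read 11.72 in replicate 2 and 11.51 to 11.54 in the others.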

How the results depend on the processing

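The count of members above background was 53 without any 1 replicate, with quantile normalization, median centring, the median over a gene's probe sets, cross-hybridising kinds of probe set (_x_at and _s_at) left out, and limma without trend. It was 54, 49 and 44 with the 90th and 99th percentiles and the organ-restricted background. Of 767 calls of single members under these alternatives 748 kept their side of background and threshold. Signal minus background changed sign with the organ-restricted background for Rab3b (−1.61), Rab42 (−1.45), Rab30 (−1.20), Rab44 (−1.09), Rab40b (−0.64), Rab36 (−0.53) and Rab7b (−0.23), and with the 99th percentile for Rab3b (−0.32) and Rab42 (−0.16). Without a change of sign, calls were lost for Rab3c (0.0076, limma adjusted p = 0.800) and Rab5b (0.0020, adjusted p = 0.823) with the organ-restricted background and for Rab30 (0.092, adjusted p = 0.382) and Rab44 (0.20, adjusted p = 0.140) with the 99th percentile. Rab39b was 0.19 above the 90th percentile, and Rab26, at −0.12 without replicate 1, was above background by 0.42 with the 90th percentile, 0.13 with the median over probe sets and 0.071, 0.014 and 0.038 without replicates 3, 4 and 5; of these Rab26 at the 90th percentile was called (limma adjusted p = 0.00673). For the other percentiles and genes the changed level of background is the cause by construction. Rab26 has 1 probe set, so with the median over probe sets its signal stayed the same and only the background changed. Without a replicate, the mean was taken over the arrays left, each with its background unchanged. The spread test called 0 members in all of its alternatives (F test after limma), with 0 to 2 at an unadjusted p under 0.05, and 0 of all genes except 2 without replicate 1. The median of the members' mean signals was 10.31, and 9.44 with the median over probe sets, which takes in dimmer probe sets; their median range, over all 59, was 0.35 and ran from 0.26 to 0.32 without 1 replicate, which takes fewer arrays. No paired analysis was possible because there is 1 group of samples. Values near the background set by these arrays bound a level and do not measure it.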
